A study of Mus musculus with 4 samples.

Results

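Nol3 encodes ARC, an inhibitor of apoptosis with a caspase recruitment domain, and its signal was examined together with that of the death-pathway genes whose proteins it is known to bind or to act beside. The 9 genes chosen were Nol3, Casp8, Casp2, Fas, Fadd, Bax, Bbc3, Bad and Cflar. They were listed for what is known of their proteins, though earlier results of these data were known when they were chosen. A gene was taken as measured where the array had a row annotated with that gene symbol and no other, which gave 8 of the 9 genes out of 22180 genes with such a row. Bax had no row of this kind and was not analysed here. RNA came from Thy1+ LSK cells of mouse bone marrow, a sorted fraction enriched for blood stem cells, in 2 arrays of Nol3-/- MPN mice and 2 arrays of Nol3+/+ mice. By their genotype labels, mice of the Nol3-/- MPN group carried no intact copy of Nol3 and Nol3+/+ mice had both copies intact. The label MPN of the first group is read here as myeloproliferative neoplasm. The Nol3+/+ group had no disease label of its own in the sample titles, although the wording of the series leaves room for MPN to cover both genotypes. Both groups were C57BL/6, untreated and 11 to 18 months old, and the cells were not cultured. The labels give neither the sex of the mice, nor the kind of Nol3 deletion and the cells it covers, nor whether an array held RNA of 1 mouse or a pool, so p-values measure the spread between these arrays, which may be technical.

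Apoptosis is started along either of a pair of routes that meet at the caspases, the proteases that dismantle the cell. In the receptor route, ligand-bound Fas recruits the adaptor Fadd, which gathers and activates caspase-8, and Cflar (c-FLIP) competes for the same adaptor as a decoy. In the mitochondrial route, BH3-only proteins such as Bbc3 (PUMA) and Bad relieve the restraint on Bax, which then opens the outer mitochondrial membrane. Work on human and rat proteins has placed ARC on both routes, since it binds Fas, Fadd and caspase-8 on the first and Bax and PUMA on the second, and it also binds caspase-2. ARC is best known from heart and skeletal muscle, where it is abundant. In human blood progenitors Fas is known to be scarce at rest and to be induced by inflammatory cytokines.

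Values are log2 signals of whole-transcript arrays as deposited, and a difference is Nol3-/- MPN minus Nol3+/+ on that scale. Genes with a mean signal below 4.835, the 25th percentile of the gene rows, were called dim and left untested. This left 16635 genes, among them all 8 measured members. Array medians lay between 5.35 and 5.39. Across the genes tested, Nol3+/+ replicate 1 stood somewhat apart, with correlations of 0.899 and 0.908 with the Nol3-/- MPN arrays, against 0.929 and 0.945 for Nol3+/+ replicate 2. Within groups the correlation was 0.949 for Nol3-/- MPN and 0.911 for Nol3+/+. Nol3+/+ replicate 2 was thus closer to both Nol3-/- MPN arrays than to Nol3+/+ replicate 1. Of the sort genes, Kit read 8.38 and 7.39 in Nol3-/- MPN and 8.07 and 8.10 in Nol3+/+, whereas Thy1 read 4.64 and 5.24 in Nol3-/- MPN and 4.74 and 5.02 in Nol3+/+, so 1 array of each group lay below the dim limit. Ly6a, which encodes Sca-1, was not analysed here. Xist read 10.9 and 10.7 in Nol3-/- MPN and 5.43 and 5.28 in Nol3+/+. Eif2s3y on the Y chromosome read 4.24 and 3.97 in Nol3-/- MPN and 6.53 and 7.17 in Nol3+/+. These are the signals of female RNA in Nol3-/- MPN and of male RNA in Nol3+/+, although the labels do not give the sex. Genotype, disease label and sex cannot be told apart in these 4 arrays.

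None of the 8 measured genes passed the test. Over all genes limma called 4 at an adjusted p under 0.05, which is 0.0240% of those tested. These were Xist, the Y-linked Gm20815 and the non-coding RNA genes Snord92 and 4930539J05Rik, named here after their values were seen because the count is small. At an unadjusted p under 0.05 limma took 1 member, Fas, against 5.80% of all genes. The groups did not overlap for 3 of the 8 members, namely Fas, Casp8 and Casp2, all higher in Nol3-/- MPN. That is 37.5% of the members, and 35.5% of all genes tested had no overlap, 19.7% with higher and 15.9% with lower signals in Nol3-/- MPN. The difference was above 0 for 6 of the 8 genes, against 51.7% of all genes. The median difference of the 8 genes was 0.04, and that of all genes tested was 0.0084. By their 95% intervals, 7 of the 8 genes exclude a 2-fold difference of deposited signal in either direction, the exception being Casp8. This does not bound transcript amounts, since low amounts cannot be separated from background. The means of Fas and Bbc3 lay only 0.11 and 0.12 above the dim limit, and that of Nol3 0.59 above it.

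**Figure D1:**
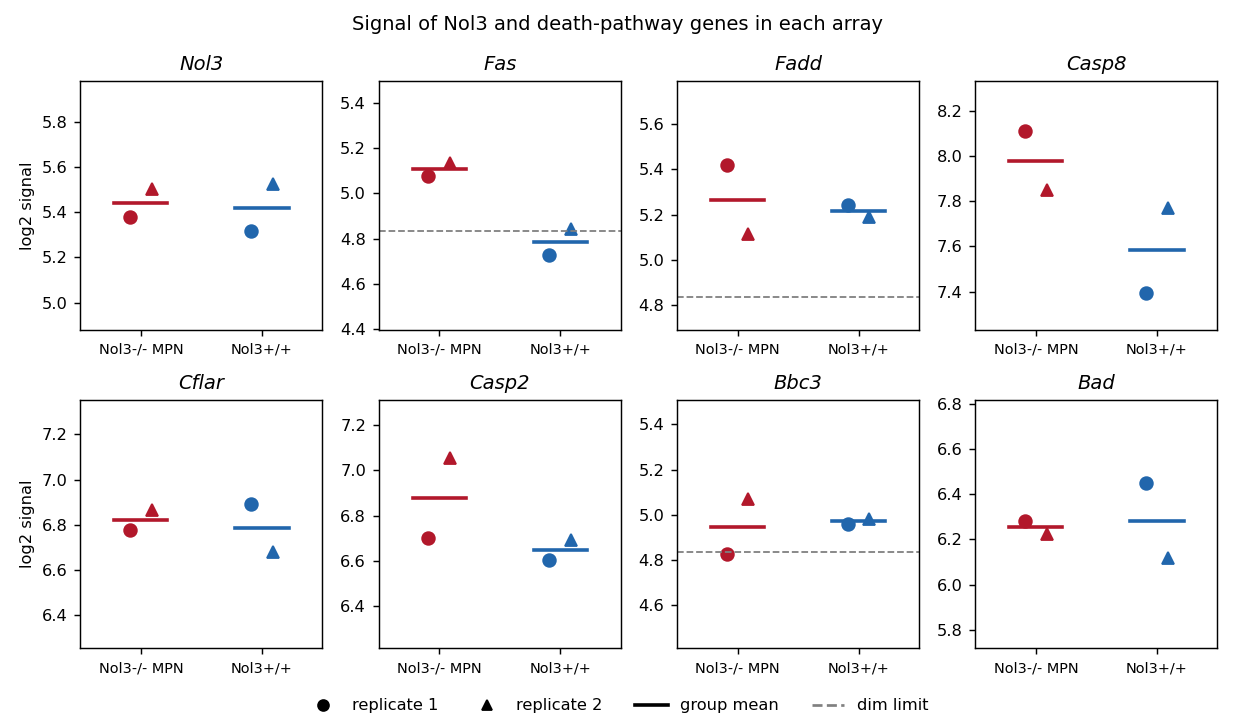
Log2 signal (vertical axis, each panel spanning the same number of log2 units) of the 8 measured genes in the Nol3-/- MPN arrays (left, red) and the Nol3+/+ arrays (right, blue), with circles for replicate 1, triangles for replicate 2, bars for group means and a dashed line at the dim limit of 4.835. The groups are separate in the panels of Fas, Casp8 and Casp2 and overlap in the other 5.

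Nol3 itself read 5.38 and 5.50 in the Nol3-/- MPN arrays, against 5.31 and 5.52 in the Nol3+/+ arrays. Both Nol3-/- MPN values lay inside the range of the Nol3+/+ values. The group means were 5.44 ± 0.09 in Nol3-/- MPN and 5.42 ± 0.15 in Nol3+/+ (SD, n = 2 each), a difference of 0.02 (SE = 0.14, limma adjusted p = 0.995). Its interval, from -0.34 to 0.38, corresponds to signals between 0.789 and 1.30 times those of Nol3+/+. The labels do not say which part of the gene is missing in Nol3-/- mice, so a row whose probes may lie outside the deleted part checks nothing about genotype. The mean over the 4 arrays lay 0.59 above the dim limit, and low transcript amounts cannot be separated from background on this array.

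Around Nol3 on chromosome 8, RefSeq (GRCm38.p6) places Fbxl8 and Hsf4 on one side and 4931428F04Rik and Exoc3l on the other, as the nearest genes with a row of their own. The annotated span of 4931428F04Rik overlaps that of Nol3, and the sources used here do not say whether the array separates their transcripts. It read 5.82 and 5.34 in Nol3-/- MPN and 5.58 and 5.36 in Nol3+/+, a difference of 0.12 (limma adjusted p = 0.958). Hsf4, a heat shock transcription factor gene, read 5.78 and 5.92 in Nol3-/- MPN and 5.86 and 6.31 in Nol3+/+, a difference of -0.24 (limma adjusted p = 0.892). Fbxl8, an F-box protein gene, and Exoc3l, related to a subunit of the exocyst, differed by -0.12 and -0.08. The groups overlapped for all 4 of these neighbours, as they did for Nol3.

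The autosomal protein-coding genes whose array-to-array course was most like that of Nol3, by the root mean square difference of values centred on each gene's own mean over the 4 arrays, were Utrn, Gmppb and Adam19. Their distances from Nol3 were 0.0045, 0.0082 and 0.010 log2 units. Utrn, which encodes utrophin, read 6.81 and 6.94 in Nol3-/- MPN and 6.76 and 6.96 in Nol3+/+. The Nol3 course is close to flat, and 16.4% of the 13611 genes ranked lay within 0.1 log2 units of it. Of the other members, Bbc3 was within that distance, at 0.08, while Casp8 was the farthest at 0.24.

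On the receptor route, Fas, the death receptor also known as CD95, had the smallest p of the 8 genes. It read 5.08 and 5.14 in Nol3-/- MPN, against 4.73 and 4.84 in Nol3+/+. Both Nol3-/- MPN arrays were above both Nol3+/+ arrays, the nearest arrays of the groups lay 0.24 apart, and the arrays within a group lay 0.06 apart in Nol3-/- MPN and 0.11 apart in Nol3+/+. The means were 5.11 ± 0.04 in Nol3-/- MPN and 4.79 ± 0.08 in Nol3+/+ (SD, n = 2 each). The difference was 0.32 (SE = 0.12), or 1.25-fold, and its interval ran from 0.0065 to 0.63 (limma unadjusted p = 0.0468, adjusted p = 0.841). The Nol3+/+ mean lay below the dim limit of 4.835 and the row was tested through its higher Nol3-/- MPN values, so this is a difference of deposited signals near background. In bulk RNA of sorted cells, more cells with Fas RNA and more Fas RNA per cell cannot be told apart.

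Fadd, the adaptor that links Fas to caspase-8, read 5.42 and 5.11 in Nol3-/- MPN, against 5.24 and 5.19 in Nol3+/+. The Nol3-/- MPN arrays lay on either side of the Nol3+/+ arrays, and the difference was 0.05 (SE = 0.15, limma adjusted p = 0.976). Casp8, the initiator protease of this route, read 8.11 and 7.85 in Nol3-/- MPN, against 7.40 and 7.77 in Nol3+/+. The groups were separate, with Nol3-/- MPN replicate 2 only 0.08 above Nol3+/+ replicate 2 and Nol3+/+ replicate 1 the low array. The means were 7.98 ± 0.18 in Nol3-/- MPN and 7.58 ± 0.26 in Nol3+/+ (SD, n = 2 each), a difference of 0.40, the largest of the 8 genes, with an SE of 0.25. Its interval ran from -0.25 to 1.04, or from 0.841-fold to 2.06-fold, and the adjusted p by limma was 0.863. Without Nol3+/+ replicate 1 the Casp8 difference was 0.21.

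Cflar, the decoy that keeps caspase-8 in check, read 6.78 and 6.87 in Nol3-/- MPN, against 6.89 and 6.68 in Nol3+/+. Both Nol3-/- MPN arrays lay between the Nol3+/+ arrays, and the difference was 0.04 (SE = 0.20, limma adjusted p = 0.994). Casp8 and Cflar both lie on chromosome 1, and whether their differences are unequal was not tested.

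Casp2, a caspase with a recruitment domain of its own that is activated on the PIDDosome, read 6.70 and 7.06 in Nol3-/- MPN, against 6.60 and 6.69 in Nol3+/+. The groups did not overlap, but the nearest arrays were only 0.0070 apart, and the Nol3-/- MPN arrays differed from each other by 0.36. The difference was 0.23 (SE = 0.22, limma adjusted p = 0.909), smaller than that spread. It was 0.05 without Nol3-/- MPN replicate 2.

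Since Fas, Casp8 and Casp2 were the members whose groups did not overlap, the 250 bases before the annotated start of each are shown from RefSeq (GRCm38.p6), all 3 on the plus strand, at chr19:34290409-34290658 for Fas, chr1:58802252-58802501 for Casp8 and chr6:42264735-42264984 for Casp2. Capitals mark matches, on either strand, to any of 5 short motifs.
Fas: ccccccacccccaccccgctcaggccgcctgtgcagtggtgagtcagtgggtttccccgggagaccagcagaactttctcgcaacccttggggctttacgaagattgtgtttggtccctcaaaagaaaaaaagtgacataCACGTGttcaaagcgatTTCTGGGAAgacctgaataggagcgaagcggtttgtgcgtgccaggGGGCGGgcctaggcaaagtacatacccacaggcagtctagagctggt
Casp8: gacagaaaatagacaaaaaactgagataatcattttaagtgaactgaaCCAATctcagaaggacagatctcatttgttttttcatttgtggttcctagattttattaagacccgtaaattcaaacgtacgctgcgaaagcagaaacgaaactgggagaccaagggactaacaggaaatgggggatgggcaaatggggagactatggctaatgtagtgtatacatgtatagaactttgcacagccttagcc
Casp2: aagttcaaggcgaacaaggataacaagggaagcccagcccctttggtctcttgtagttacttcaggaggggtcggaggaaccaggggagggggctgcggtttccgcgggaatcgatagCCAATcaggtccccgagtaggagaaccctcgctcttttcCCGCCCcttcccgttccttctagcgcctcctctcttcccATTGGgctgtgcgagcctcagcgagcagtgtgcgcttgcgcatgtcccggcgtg
The motifs searched were the TATA box (TATAAA), the GC box (GGGCGG), the CCAAT box (CCAAT), an E-box (CACGTG) and a STAT-type site (TTCNNNGAA). In the Fas window the matches were an E-box, a STAT-type match TTCTGGGAA whose first base lies at -93 from the start, and a GC box, none overlapping another. Of all 32851 promoters of the same length, 6.02% held the E-box, 7.02% the STAT-type site and 32.7% the GC box. The Casp8 window held 1 CCAAT box and the Casp2 window 2 CCAAT boxes and a GC box, with a CCAAT box in 33.8% of all promoters. No motif was present in all 3 windows. The TATA box, held by 12.4% of all promoters, had no match in these windows. The share of G and C was 56.4% for Fas, 39.6% for Casp8 and 60.4% for Casp2, against a median of 52.4% over all promoters. A match is a description of letters and was not measured as binding.

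On the mitochondrial route, Bbc3, which encodes the BH3-only protein PUMA, read 4.83 and 5.07 in Nol3-/- MPN, against 4.96 and 4.98 in Nol3+/+. The Nol3-/- MPN arrays spanned the Nol3+/+ arrays, and Nol3-/- MPN replicate 1 lay just below the dim limit. The difference was -0.02 (SE = 0.14, limma adjusted p = 0.994). Bad, a BH3-only protein controlled by survival kinases, read 6.28 and 6.22 in Nol3-/- MPN, against 6.45 and 6.12 in Nol3+/+. Both Nol3-/- MPN values fell between those of Nol3+/+, and the difference was -0.03 (SE = 0.19, limma adjusted p = 0.995). The annotated span of Bad overlaps that of Gpr137, and a further row listed for both genes was not used. That row read 5.30 and 5.17 in Nol3-/- MPN and 5.08 and 5.08 in Nol3+/+. Its Nol3-/- MPN arrays were thus both above the Nol3+/+ arrays, unlike the Bad row used, and its signal cannot be assigned to either gene.

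With each array left out in turn, the difference ran from 0.26 to 0.38 for Fas, from 0.21 to 0.58 for Casp8 and from 0.05 to 0.41 for Casp2. Groups that do not overlap keep their sign in this by construction, so the direction of these 3 genes carries no further information. The other 5 genes took either sign, with Nol3 at -0.083 to 0.12, Fadd at -0.10 to 0.20, Cflar at -0.072 to 0.14, Bbc3 at -0.14 to 0.10 and Bad at -0.20 to 0.13. With 1 array left out, no member reached an unadjusted p under 0.05, and that of Fas ran from 0.0655 to 0.160.

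**Figure D2:**
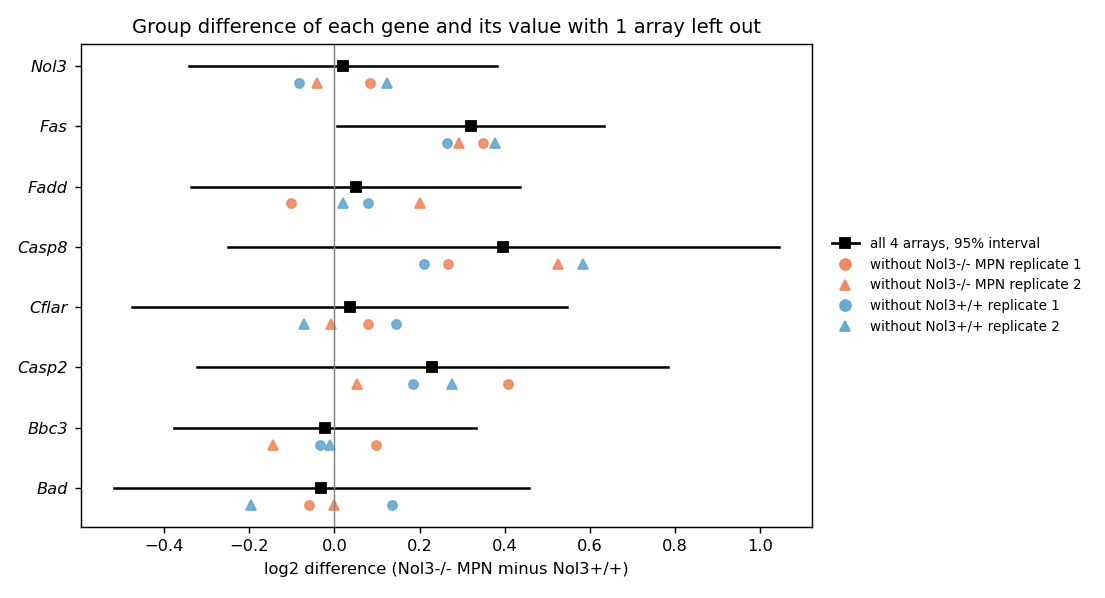
Log2 difference, Nol3-/- MPN minus Nol3+/+ (horizontal axis), of the 8 measured genes, with black squares and lines for the value and 95% interval from all 4 arrays, and coloured points below them for the value with 1 array left out. The interval of Fas alone lies above 0, from 0.0065 to 0.63, and the points of Fas, Casp8 and Casp2 lie above 0, as they must where the groups do not overlap.

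**Figure D3:**
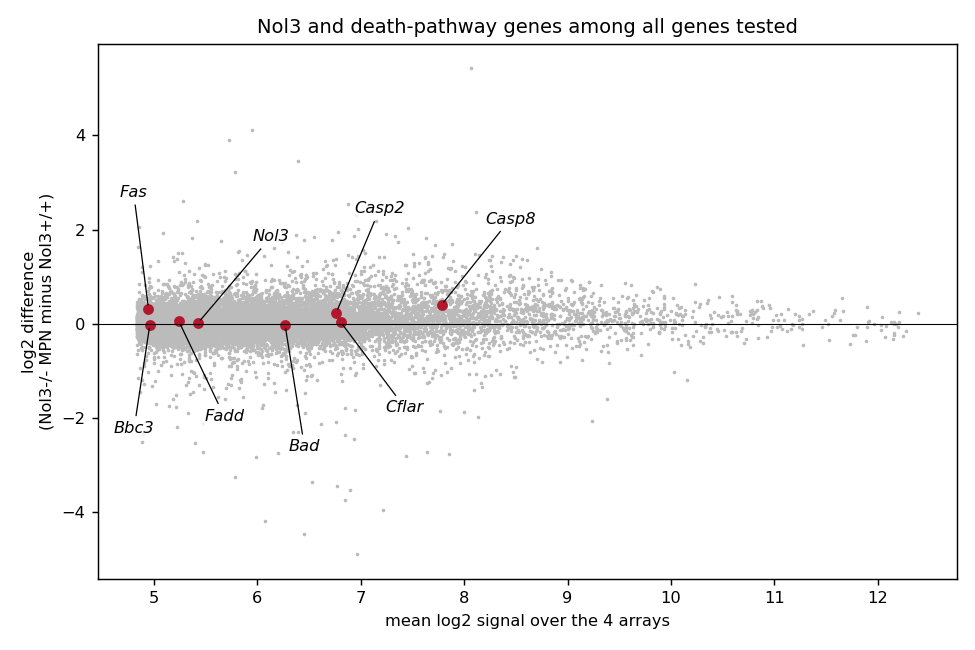
Log2 difference, Nol3-/- MPN minus Nol3+/+ (vertical axis), against the mean log2 signal over the 4 arrays (horizontal axis) for the 16635 genes tested (grey), with the 8 measured members in red. The members lie between -0.03 and 0.40, inside the band that holds most genes.

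Genes that act around these members were described from 5 lists with 50 genes, of which 43 had a row and 38 were tested. None passed at the adjusted threshold. By unadjusted p, 1 of the 38 was under 0.05 and higher, the necroptosis gene Mlkl, and 0 were lower, against 3.73% and 2.07% of all genes. The groups did not overlap for 19 of the 38 (50%), 11 on the higher and 8 on the lower side, against 35.5% of all genes, 19.7% higher and 15.9% lower. These shares over all genes are the ones to set beside the count of each list, and nothing particular to a list is read from them. The median difference of the 38 was 0.06. The limma adjusted p-values of the list genes named below lay between 0.841 and 0.879.

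Among death ligands and receptors, 1 of 8 tested genes was higher and 2 were lower in Nol3-/- MPN without overlap, against 19.7% and 15.9% of all genes, with a median of -0.06. Tnf, the ligand of the TNF receptors, read 5.93 and 5.79 in Nol3-/- MPN and 6.14 and 6.51 in Nol3+/+, a difference of -0.46 that was -0.28 without Nol3+/+ replicate 2. Tnfsf10, which encodes the death ligand TRAIL, read 5.67 and 5.36 in Nol3-/- MPN and 5.02 and 5.34 in Nol3+/+, a difference of 0.33 that became 0.17 with Nol3+/+ replicate 1 left out and 0.18 with Nol3-/- MPN replicate 1 left out. Its separation rested on Nol3-/- MPN replicate 2 being just above Nol3+/+ replicate 2. The receptor gene Tnfrsf1b differed by -0.18, and by -0.10 without Nol3+/+ replicate 1. Fasl, the ligand of Fas, was dim, at 4.53 and 4.79 in Nol3-/- MPN and 4.59 and 4.54 in Nol3+/+, and its groups overlapped.

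Of the receptor adaptors and necroptosis genes, 3 of 7 tested were higher and 1 was lower without overlap, against 19.7% and 15.9% of all genes, with a median of 0.18. Mlkl, the pore-forming executioner of necroptosis, read 6.92 and 6.49 in Nol3-/- MPN, against 5.89 and 5.87 in Nol3+/+. Both Nol3-/- MPN arrays were above both Nol3+/+ arrays, which lay close together. The means were 6.71 ± 0.31 in Nol3-/- MPN and 5.88 ± 0.0080 in Nol3+/+ (SD, n = 2 each), a difference of 0.83 (SE = 0.21, limma unadjusted p = 0.0106, adjusted p = 0.841). The Mlkl difference lay between 0.61 and 1.04 with 1 array left out. Ripk3, the kinase that activates Mlkl, was dim, at 4.38 and 4.86 in Nol3-/- MPN and 4.86 and 4.32 in Nol3+/+. Cyld, a deubiquitinase of receptor complexes, differed by 0.51, and by 0.21 without Nol3+/+ replicate 1. Tradd, an adaptor of TNF receptor 1, differed by 0.18, and by 0.07 without Nol3+/+ replicate 2.

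In the caspase cascade and its inhibitors, 3 of 9 tested genes were higher and 1 was lower without overlap, against 19.7% and 15.9% of all genes, with a median of 0.26. Htra2, a mitochondrial protease that antagonises inhibitors of apoptosis once released, read 7.58 and 6.79 in Nol3-/- MPN and 6.29 and 6.50 in Nol3+/+. The groups were separate, but the Nol3-/- MPN arrays were spread by an SD of 0.56, and the difference was 0.79 with an SE of 0.32. It was 0.39 without Nol3-/- MPN replicate 1 and 1.19 without Nol3-/- MPN replicate 2. Casp6, an effector caspase, read 6.12 and 5.91 in Nol3-/- MPN and 5.75 and 5.54 in Nol3+/+, a difference of 0.37. Xiap, a direct inhibitor of caspases, read 7.28 and 6.97 in Nol3-/- MPN and 7.72 and 7.38 in Nol3+/+, a difference of -0.42 that became -0.25 with Nol3+/+ replicate 1 left out and -0.27 with Nol3-/- MPN replicate 2 left out.

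In the mitochondrial list, 2 of 11 tested genes were higher and 3 were lower without overlap, against 19.7% and 15.9% of all genes, with a median of -0.07. Bcl2, the founding survival gene of its family, read 9.20 and 9.16 in Nol3-/- MPN and 8.29 and 9.10 in Nol3+/+. Nol3+/+ replicate 1 was the array that stood low, and the difference of 0.48 was 0.08 without it. Bok, a relative of Bax, differed by -0.21, and by -0.10 without Nol3-/- MPN replicate 1. The groups overlapped for the survival gene Bcl2l2, which differed by -0.22, and by -0.10 without Nol3+/+ replicate 1 or Nol3-/- MPN replicate 1.

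Of genes known to act on ARC in human or rat cells, all 3 with a row had no overlap between the groups, 2 higher and 1 lower in Nol3-/- MPN, against 35.5% of all genes without overlap. Csnk2a2, a catalytic subunit of the kinase CK2 that phosphorylates ARC, read 8.11 and 7.54 in Nol3-/- MPN and 6.66 and 7.51 in Nol3+/+, a difference of 0.74 that became 0.31 with Nol3+/+ replicate 1 left out and 0.45 with Nol3-/- MPN replicate 1 left out. Csnk2a1, the other catalytic subunit, read 9.73 and 9.75 in Nol3-/- MPN and 9.56 and 9.46 in Nol3+/+, a difference of 0.23. Mdm2, the ubiquitin ligase that directs ARC to degradation, read 6.78 and 6.73 in Nol3-/- MPN and 7.53 and 6.97 in Nol3+/+, a difference of -0.50 that was -0.22 without Nol3+/+ replicate 1.

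**Figure D4:**
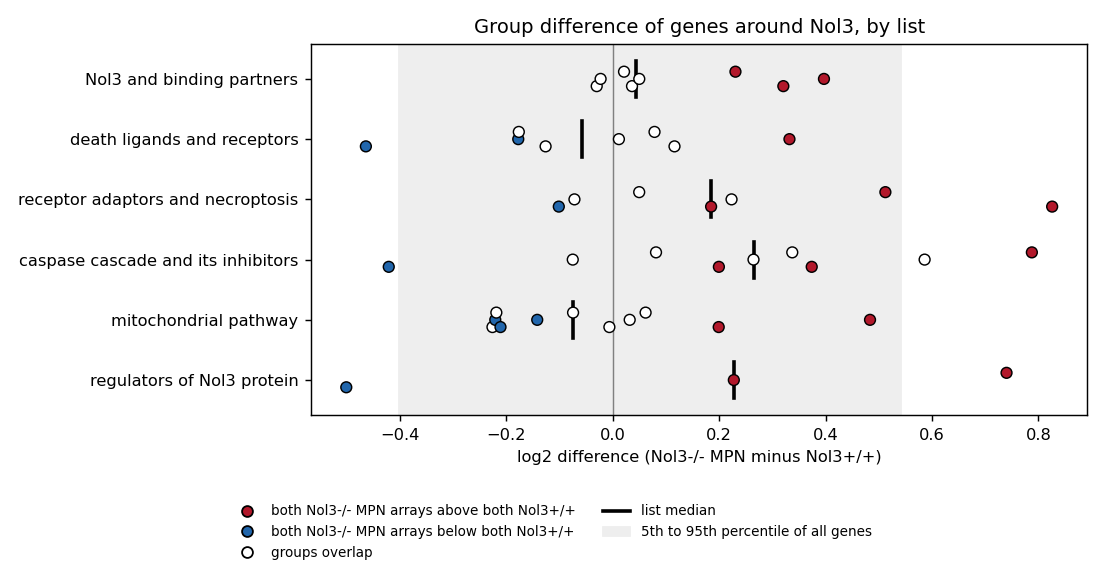
Log2 difference, Nol3-/- MPN minus Nol3+/+ (horizontal axis), of the tested genes of each list (rows), filled red where both Nol3-/- MPN arrays were above both Nol3+/+ arrays, blue where they were below and white where the groups overlap, with bars for list medians and a grey band from -0.40 to 0.54 for the 5th to the 95th percentile of all genes. The 8 members lie inside the band, while Mlkl at 0.83, Htra2 at 0.79, Csnk2a2 at 0.74 and Cycs at 0.59 lie above it and Mdm2 at -0.50, Tnf at -0.46 and Xiap at -0.42 lie below it.

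Nol3+/+ replicate 1 was the array farthest from the others for 4 of the 8 members and 15 of the 38 list genes, together 41.3%, against 33.2% of all genes tested. The 4 members were Nol3, Casp8 and Fas, for which it was the lowest array, and Bad, for which it was the highest.

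**Figure D5:**
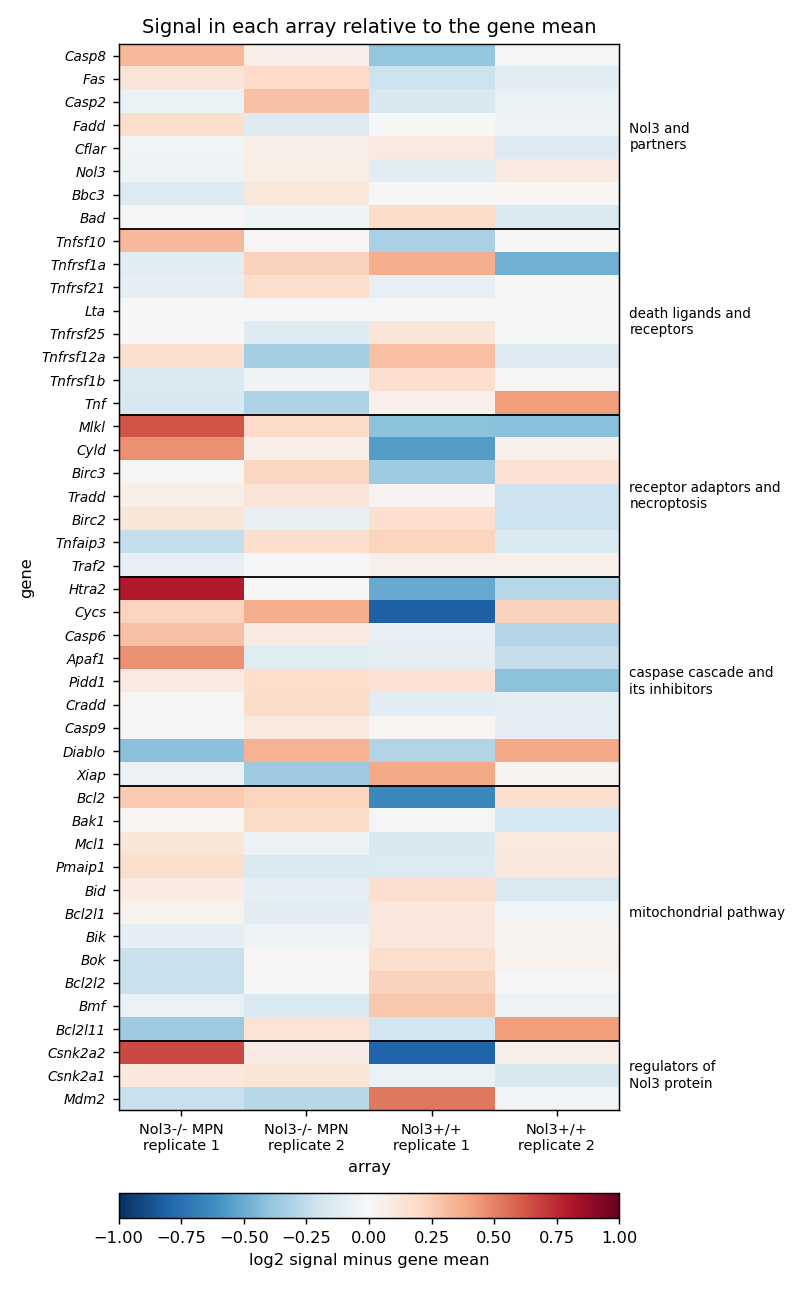
Log2 signal minus the gene's mean over the 4 arrays (colour, red above and blue below the mean) for the 8 members and the 38 tested list genes (rows, grouped by list) in the 2 Nol3-/- MPN and the 2 Nol3+/+ arrays (columns). Nol3+/+ replicate 1 holds the lowest values of Casp8, Cyld, Bcl2 and Csnk2a2, and Mlkl is low in both Nol3+/+ arrays.

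Markers of blood cells that a sort could let through were read beside these values, as sums of linear signal over each list. B cell markers summed to 216 and 225 in Nol3-/- MPN and 187 and 185 in Nol3+/+. Of these, 3 of 4 genes were higher without overlap, against 19.7% of all genes. Cd79b had the largest difference, 0.50, at 6.33 and 6.38 in Nol3-/- MPN and 5.85 and 5.86 in Nol3+/+. Cd79a and Ebf1 differed by 0.19 and 0.17, and Pax5 by 0.02 with overlapping groups, so the sum does not show an equal rise of all its genes. Granulocyte and monocyte markers summed to 899 and 1007 in Nol3-/- MPN and 983 and 1360 in Nol3+/+, with S100a8 and S100a9 lower and Adgre1 higher without overlap among 5 genes tested, against 15.9% and 19.7% of all genes. Mpo differed by 0.48 with overlapping groups. The other 3 genes of that list were dim, of which the granulocyte gene Ly6g read 4.96 and 5.38 in Nol3-/- MPN and 4.43 and 4.24 in Nol3+/+, so the genes of that list did not all lie on 1 side. Sums for stem cell markers were 435 and 427 in Nol3-/- MPN and 512 and 497 in Nol3+/+, with 1 of 5 genes higher and 3 lower without overlap, against 19.7% and 15.9% of all genes. Among the lower ones, Hlf read 5.37 and 5.50 in Nol3-/- MPN and 6.44 and 6.09 in Nol3+/+. Its difference was -0.83 (limma unadjusted p = 0.0051, adjusted p = 0.841). T and NK cell markers summed to 263 and 258 in Nol3-/- MPN and 267 and 280 in Nol3+/+. Without overlap, 2 of its 5 genes were higher and 2 lower, against 19.7% and 15.9% of all genes. Erythroid markers summed to 250 and 275 in Nol3-/- MPN and 277 and 263 in Nol3+/+, and megakaryocyte markers to 209 and 264 in Nol3-/- MPN and 267 and 229 in Nol3+/+, so the summed signals overlapped for both. Within the megakaryocyte list, 1 of 4 tested genes was higher and 1 lower without overlap, against 19.7% and 15.9% of all genes. These were Pf4, at a difference of 0.59, and Itga2b, at -0.19. Pf4 read 5.14 and 5.52 in Nol3-/- MPN and 4.68 and 4.80 in Nol3+/+. Both Nol3+/+ values of Pf4 lay below the dim limit, and its row was tested through its higher Nol3-/- MPN values. The Pf4 difference is thus a difference of deposited signals near background. Fas and Casp8 are also made by mature lymphoid and myeloid cells, and the part of these markers in the differences of Fas, Casp8 and Mlkl was not tested.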

How the data were processed

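The 4 arrays (2 Nol3-/- MPN, 2 Nol3+/+) were grouped by their titles. Per the labels' protocols, total RNA was amplified isothermally from a single primer before biotin labelling. The submitters' processing notes name 2 programs, Transcriptome Analysis Console and Affymetrix Expression Console. A version or normalization for either is not given in the sources used here. Per row and array, the authors deposited 1 normalized value, treated here as log2 signal because values run from 2.84 to 13.5. The log base is not stated, so folds rest on base 2.

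Of 41345 rows, 23521 had 1 gene symbol in the platform annotation, 1814 had several and 16010 had none. Where a gene had several such rows, that with the highest mean over the 4 arrays was used. The dim limit removed 5545 genes. Groups were compared over all 16635 remaining genes with limma 3.58.1 in R 4.3.3 (lmFit, eBayes with trend, 2 residual and 3.19 prior degrees of freedom) and Benjamini-Hochberg adjustment, after a check on simulated data. An exact two-sided permutation test of 2 against 2 arrays cannot go below p = 0.333. SE is the standard error by limma, SD is taken over both arrays of 1 group, and the number of arrays limits precision.

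Members and lists were chosen with earlier results of these data known, and no test was made over a list. Named genes were all members, the 3 genes with the smallest p of each pathway list, the nearest neighbours of Nol3 and the 3 genes most like it. Fasl, Ripk3, Cycs and the marker genes were named besides these, as were Eif2s3y and the 4 genes called. Alternatives covered the dim limit, normalization, choice of row, variance model, array weights, replicate block, sex chromosomes and each array left out.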

Additional observations from a re-analysis of the deposited data

How the results depend on the processing

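No member passed the adjusted threshold under any of 14 alternatives (lowest limma adjusted p = 0.465). Of 10 alternatives that keep every array, 8 change the spread or the genes tested but not a member's difference, which fixes 61 of the 109 member values. Of the 48 that could move, 41 kept their direction, in part by construction for members without overlap. The 7 that did not came with 1 array left out, where differences ran from -0.083 to 0.12 for Nol3, -0.10 to 0.20 for Fadd, -0.072 to 0.14 for Cflar, -0.14 to 0.10 for Bbc3 and -0.20 to 0.13 for Bad. Such fits keep 1 array in a group, which is assumed to vary like the other group. The unadjusted p of Fas, which was tested only through its higher Nol3-/- MPN values, ran from 0.0370 to 0.0746 over 9 alternatives that keep every array. The count of members without overlap was 3 of 8, against 35.5% of all genes. With the dim limit at the 50th percentile it was 2 of the 5 members tested, against 36.1% of all genes. It was 5 to 6 with 1 array left out, where 64% to 73.4% of all genes had no overlap by construction of the smaller group. Fas, Fadd and Bbc3 could not be tested with the dim limit at the 50th percentile. Over all genes, limma called 4 genes, 0 with an unmoderated variance, 0 without X- and Y-linked genes, and 0 to 39 with 1 array left out (0 without Nol3-/- MPN replicate 1 or 2, 18 without Nol3+/+ replicate 1, 39 without Nol3+/+ replicate 2). The cause was not tested. With the replicate number as a block 0 genes and 0 members were called, and same-numbered arrays deviated together with a correlation of only 0.05 over genes, so the numbers were not taken to pair the arrays.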
